A study of Mus musculus with 2 samples.

Results

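Late activity-dependent neuronal genes are genes that neurons switch on in the hours after strong synaptic activity, after the first wave of transcription factors such as Fos. They were followed here through 9 members chosen by gene symbol, Bdnf, Nptx2, Homer1, Vgf, Inhba, Pcsk1, Nrn1, Scg2 and Sorcs3, out of 32285 genes in the count files. The counts came from single-nucleus RNA sequencing of mouse brain after subarachnoid haemorrhage (SAH), with 1 library per condition. The SAH library pooled 3 male mice killed 12 h after endovascular perforation of an artery, and the control library, labelled Normal, pooled 3 male mice. All were labelled 6 to 8 weeks old, and the study's methods name C57BL/6J mice of a somewhat older range and describe controls that had the same operation without perforation. Both libraries held the same block of the hemisphere on the side of the bleed, from the medial prefrontal cortex back to the central lateral thalamus. With 1 pooled library per condition, haemorrhage, surgery, dissection and library cannot be told apart, single mice cannot be traced, and no test between conditions was possible. Every interval below is a 95% interval for counting error alone.

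Late response genes encode proteins that act outside the nucleus, at synapses and in secretory vesicles, and they are the means by which a period of firing is turned into lasting change of a neuron's connections. Bdnf encodes brain-derived neurotrophic factor, a secreted growth factor that acts through the receptor TrkB. Inhba encodes the activin A subunit, a secreted ligand of the transforming growth factor family. Nptx2 encodes neuronal pentraxin 2, a secreted protein that gathers AMPA receptors at excitatory synapses onto interneurons, and Nrn1 encodes neuritin, a small membrane-anchored protein that promotes neurite growth. Vgf and Scg2 encode granin proteins, which are stored in dense-core vesicles and cut into peptides, and Pcsk1 encodes prohormone convertase 1, an enzyme that makes such cuts. Homer1 encodes a scaffold of the postsynaptic density, and its activity-induced short form, Homer1a, cannot be told apart from the long forms in counts per gene. Sorcs3 encodes a sorting receptor of the sortilin family, found at synapses.

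The sequences just before the transcription start are shown for 5 members whose levels are compared below, because many activity-regulated promoters carry the binding sequence of the factor CREB. Promoter windows from RefSeq (GRCm38.p6), 250 bases before to 50 bases after a start, matched 6 of the 9 members in 13 windows, of which 7 belonged to the alternative starts of Bdnf. The full CREB sequence TGACGTCA was present in 1.79% of all 32851 windows, and its core TGACG, searched on both strands and contained in the full sequence, in 20.8%. Among the members, the Scg2 and Pcsk1 windows held the full sequence, 1 Homer1 and 1 Bdnf window held the core without it, and the Inhba window, the Sorcs3 window, the other Homer1 window and the other 6 Bdnf windows held neither. Each stretch runs from 130 to 10 bases before the start, with the core in capitals.
Scg2 (chr1:79440036-79440156, minus strand): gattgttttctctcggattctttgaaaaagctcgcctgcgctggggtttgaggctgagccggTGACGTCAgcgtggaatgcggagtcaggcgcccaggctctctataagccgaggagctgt
Pcsk1 (chr13:75089727-75089847, plus strand): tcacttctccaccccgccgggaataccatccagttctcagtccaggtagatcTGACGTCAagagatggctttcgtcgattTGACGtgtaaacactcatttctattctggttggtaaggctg
Homer1 (chr13:93303627-93303747, plus strand): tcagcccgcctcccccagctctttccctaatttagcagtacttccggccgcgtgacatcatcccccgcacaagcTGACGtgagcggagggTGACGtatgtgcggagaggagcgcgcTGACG
Bdnf (chr2:109692306-109692426, plus strand): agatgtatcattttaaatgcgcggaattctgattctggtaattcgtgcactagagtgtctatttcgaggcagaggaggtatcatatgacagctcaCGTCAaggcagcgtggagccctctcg
Inhba (chr13:16011721-16011841, plus strand): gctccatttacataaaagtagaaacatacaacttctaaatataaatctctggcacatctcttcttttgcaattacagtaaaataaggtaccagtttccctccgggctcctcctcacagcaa
In Scg2 and Pcsk1 the full sequence began 68 and 78 bases before the start, and Pcsk1 held a further core 50 bases before it. The 3 cores of Homer1 began 56, 40 and 14 bases before the start, and the Bdnf core 35 bases before it. These are matches of letters in a window and do not show binding. Nothing about the factor is drawn from their presence or absence.

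The genes lie at these places in GENCODE vM21 (GRCm38). Bdnf (ENSMUSG00000048482) is at chr2:109674700-109727007 and Nptx2 (ENSMUSG00000059991) at chr5:144545902-144557478. Homer1 (ENSMUSG00000007617) is at chr13:93299635-93405129, Vgf (ENSMUSG00000037428) at chr5:137026392-137033351 and Inhba (ENSMUSG00000041324) at chr13:16011851-16031621. Pcsk1 (ENSMUSG00000021587) is at chr13:75089826-75134861, Nrn1 (ENSMUSG00000039114) at chr13:36725361-36735131 and Scg2 (ENSMUSG00000050711) at chr1:79434669-79440120. Sorcs3 (ENSMUSG00000063434) spans 599481 bases at chr19:48206025-48805505. On the same strand 2 genes, Gm47075 and Gm47088, overlap Homer1, and genes on the opposite strand overlap Bdnf, Inhba, Nrn1 and Sorcs3. Nrn1 and Scg2 are on the minus strand and the rest on the plus strand.

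Neuron classes were named from marker genes that did not include the members. The gate placed 4860 Normal and 6820 SAH nuclei as excitatory and 2193 and 2321 as GABAergic, and 10 subtypes within them held between 103 and 835 nuclei per library. All 10 subtypes had every marker of their list detected, but nuclei were gated on these same markers, so this is no check of the names. None had a marker of another subtype among its 10 leading genes, although no marker of the layer 6 list was among its own 10. St18, a gene of the oligodendrocyte marker list, was among the 10 of dentate granule-like nuclei. The median depth was 10744 and 12324 UMIs (single RNA molecules counted) per nucleus in excitatory nuclei and 8228 and 9848 in GABAergic nuclei, Normal first. A cluster of mixed neurons led by Avp, Slc5a7 and Chat held 987 Normal and 328 SAH nuclei. The summed markers of microglia within excitatory nuclei were 78.5 UMIs per 1000000 UMIs of the class (CPM) in Normal and 104 in SAH, those of oligodendrocytes 102 and 78.6 and those of astrocytes 147 and 159, with no gene of these 3 lists at 0. The part of tissue mixture and of RNA from other cells in the results was not tested.

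In excitatory neurons, 8 of the 9 genes had a lower level in SAH and Inhba alone a higher one. The direction alone says little, since the median gene was also lower in SAH there. Sorcs3, 1 of the 8, was only 1.11-fold lower. Levels are in CPM. A gene was called higher or lower where its share of the class's UMIs differed at least 1.5-fold and it had at least 50 UMIs over both libraries. By this rule 7 members were lower, against 16.7% of all 18278 genes tested, and 1 was higher, against 15.7%. The median log2 ratio of SAH over Normal was -0.68 over the 9 genes and -0.11 over all genes. In GABAergic neurons, 3 members (Vgf, Scg2 and Bdnf) were lower, against 18.6% of 15390 genes, and Inhba was higher, against 10.5%. Bdnf, at 4.52 and 2.52 CPM, was there below its level in oligodendrocyte nuclei and is not read as expression. The medians there were -0.45 for the 9 and -0.17 for all genes.

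**Figure D1:**
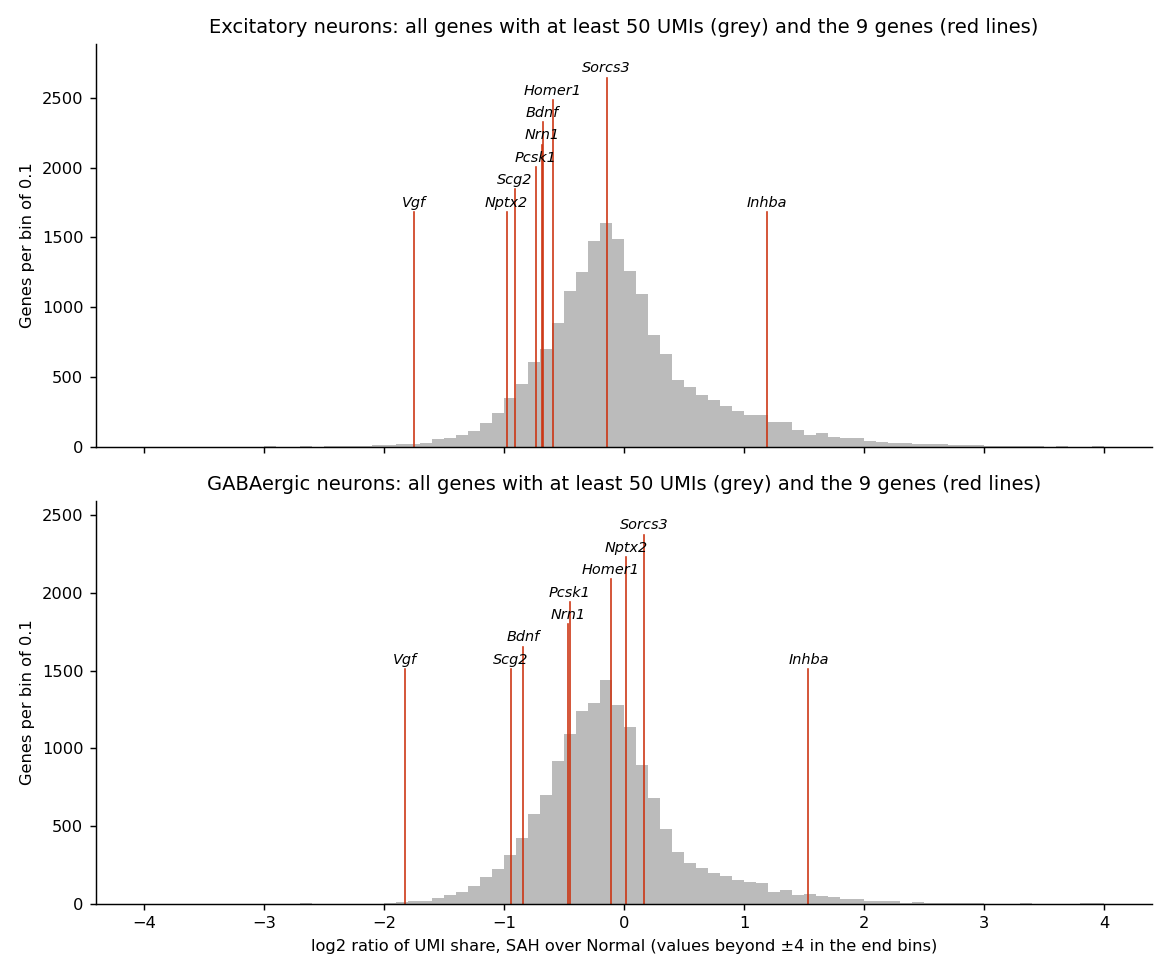
Distribution of the log2 ratio of each gene's share of UMIs, SAH over Normal (x axis), over all genes with at least 50 UMIs in excitatory (top) and GABAergic neurons (bottom), as the number of genes per bin of 0.1 (y axis), with the 9 genes as red lines. Vgf lies at -1.75 and -1.82 and Inhba at 1.19 and 1.53, on opposite sides of the bulk of genes in both classes.

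Inhba was higher in SAH in all 10 subtypes. In excitatory neurons its level was 26.2 CPM in Normal (interval 24.9 to 27.5) and 59.7 in SAH (58.1 to 61.3), a 2.28-fold difference. In GABAergic neurons it was 14.3 (12.7 to 16.0) and 41.4 (39.0 to 44.0), a 2.90-fold difference. The log2 ratio ranged from 0.97 in dentate granule-like to 2.02 in parvalbumin interneuron-like nuclei, and in each of the 10 subtypes its interval lay above 0.
In both libraries the level was highest in dentate granule-like nuclei, followed by hippocampal pyramidal-like and striatal projection-like nuclei, but in each library the intervals of neighbours in this order overlapped, and the third overlapped upper layer cortical-like nuclei. The level went from 66.5 to 130 CPM in dentate granule-like, from 46.4 to 118 in hippocampal pyramidal-like and from 38.7 to 93.1 in striatal projection-like nuclei. It went from 26.1 to 81.0 in upper layer cortical-like nuclei, where the largest ratio among excitatory subtypes was seen, and from 17.9 to 45.2 in thalamic-like nuclei. In parvalbumin interneuron-like nuclei, at the low end, 11 UMIs in Normal and 51 in SAH were counted, or 3.33 and 13.5 CPM. SAH was thus above Normal in subtypes with high and with low levels. Oligodendrocyte nuclei, which should hold little Inhba, had 1.94 and 9.09 CPM, also higher in SAH, and in the SAH library the intervals of the parvalbumin and somatostatin interneuron-like nuclei overlapped theirs. The part of free RNA in the result was not tested.

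Vgf was lower in SAH in all 9 subtypes with at least 50 of its UMIs. In excitatory neurons its level was 42.8 CPM in Normal (41.1 to 44.4) and 12.7 in SAH (12.0 to 13.5), 3.37-fold lower. In GABAergic neurons it was 84.9 and 24.0, 3.54-fold lower. Its log2 ratio was most negative in somatostatin interneuron-like nuclei, at -2.57, where 561 UMIs in Normal faced 89 in SAH.
Those nuclei had the highest level of Vgf in Normal, 199 CPM, and in SAH they held 33.5, below the caudal interneuron-like nuclei at 44.1. Beside this result, the summed markers of the somatostatin list had a log2 ratio of -0.62 in the same nuclei, from 3877 to 2529 CPM. Among the excitatory subtypes, the Vgf level went from 37.3 to 8.83 in upper layer cortical-like and from 46.4 to 12.0 in layer 6 corticothalamic-like nuclei, and the log2 ratio in hippocampal pyramidal-like nuclei was -1.83. The dentate granule-like nuclei held only 10 and 5 UMIs of Vgf and lay below the oligodendrocyte level in both libraries, so no difference is read there. In oligodendrocyte nuclei Vgf was lower too, with a log2 ratio of -1.18, and its SAH interval there was 4.59 to 7.94 CPM. The SAH intervals of upper layer (7.22 to 10.7), hippocampal pyramidal-like (7.92 to 15.0) and parvalbumin interneuron-like nuclei (7.78 to 14.7) overlapped it.

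Scg2, the second granin gene, was also lower in both classes, by less than Vgf. Its level was 85.7 CPM in Normal and 45.7 in SAH in excitatory neurons and 237 and 123 in GABAergic neurons, with log2 ratios of -0.91 and -0.94. All 10 subtypes had a ratio below 0, from -0.31 in hippocampal pyramidal-like (interval -0.59 to -0.03) to -1.34 in somatostatin interneuron-like nuclei, and 9 passed the 1.5-fold limit. When ratios were centred on genes of like length, Scg2 was at -0.595 in excitatory neurons, barely past the limit, and at -0.46 in GABAergic neurons, within it. Only somatostatin interneuron-like nuclei of the 10 subtypes then still passed the limit, at -0.75, and the ratio in hippocampal pyramidal-like nuclei was 0.26. Caudal interneuron-like nuclei held the most Scg2 in both libraries, 262 and 162 CPM.
Oligodendrocyte nuclei held 40.4 and 17.0 CPM of Scg2, close to the 39.6 and 21.8 of layer 6 corticothalamic-like nuclei and to the level of upper layer cortical-like nuclei, whose log2 ratio was -1.08. In these cortical subtypes the values are not read as a difference in neurons. The log2 ratio of Scg2 was -1.25 in oligodendrocyte and -1.32 in microglia nuclei, more negative than in either neuron class. The part of free RNA in the Scg2 values was not tested.

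By the gate, Pcsk1, the convertase, was lower in cortical and striatal neurons. In the other 4 subtypes with at least 50 of its UMIs it was within the limit. In excitatory neurons its level was 59.7 CPM in Normal and 35.8 in SAH, a log2 ratio of -0.74 (-0.80 to -0.67). The ratio was -1.13 in upper layer, -0.64 in middle layer and -0.63 in layer 6 cortical-like nuclei and -1.20 in striatal projection-like nuclei. Without the 10 richest nuclei of each library it was -0.57 in middle layer and -0.49 in layer 6 nuclei, within the limit. In striatal projection-like nuclei, with 47 and 20 UMIs, 10 nuclei held 78.7% of the Normal and 100% of the SAH UMIs. In the matching striatal cluster the ratio was -0.57 (-1.42 to 0.28) from 27 and 24 UMIs, within the limit.
The gated ratio was -0.56 (-1.03 to -0.09) in somatostatin interneuron-like nuclei. It was 0.17 (-0.21 to 0.55) in thalamic-like, 0.14 (-0.44 to 0.72) in hippocampal pyramidal-like and 0.10 (-0.29 to 0.49) in caudal interneuron-like nuclei. The intervals of the last 3 lay above that of the upper layer nuclei, whose interval was -1.41 to -0.86. In Normal the level intervals of thalamic-like (12.5 to 19.2 CPM) and hippocampal pyramidal-like nuclei (10.5 to 18.8) overlapped that of oligodendrocyte nuclei (6.51 to 12.6). In SAH they lay above it (4.31 to 7.56). The Pcsk1 ratio in oligodendrocyte nuclei was -0.67 (-1.31 to -0.03), and the part of background in these 2 neuron ratios was not tested. In hippocampal pyramidal-like nuclei, 10 nuclei held 68.8% of the 48 Normal UMIs. Without the 10 richest nuclei of each library the ratio there was 0.87. In the matching cluster it was 1.29 (0.47 to 2.18) from 17 and 50 UMIs, past the limit. Caudal interneuron-like nuclei held the highest level in SAH, 68.0 CPM, with an interval that overlapped that of middle layer cortical-like nuclei, which were highest in Normal with 88.8.

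Nrn1 and Homer1 were lower in excitatory neurons, each past the limit in some subtypes only. Nrn1 went from 98.2 CPM to 61.2 in excitatory neurons (log2 ratio -0.68), with the most negative ratio among those past the limit in upper layer cortical-like nuclei, -1.06, where the level went from 99.2 to 47.6. Middle layer nuclei, at -0.56, and layer 6 nuclei, at -0.28, were within the limit. Nrn1 was just past it in dentate granule-like nuclei, at 135 and 89.7, whose intervals overlapped those of middle layer nuclei, at 131 and 89.0. In the 4 GABAergic subtypes Nrn1 lay below the oligodendrocyte level of 34.1 and 27.4 in both libraries. The ratio of Nrn1 was below 0 in all 7 subtypes and all 22 clusters with at least 50 of its UMIs. Centred on genes of like length, it was -0.47 in excitatory neurons and -0.09 in dentate granule-like nuclei, both within the limit. In upper layer nuclei it was then -0.71, and in layer 6, thalamic-like and hippocampal pyramidal-like nuclei 0.08, 0.03 and 0.15.
Homer1 went from 384 to 254 CPM in excitatory neurons, 1.51-fold and so barely past the limit. Centred on the median of all genes, its log2 ratio was -0.49, within the limit. The difference was largest in layer 6 corticothalamic-like nuclei, from 560 to 281, followed by middle layer nuclei, from 513 to 318. Upper layer nuclei missed the limit at 1.49-fold, from 533 to 357. Layer 6 nuclei held the most Homer1 of the 10 subtypes in Normal and ranked behind the upper and middle layer nuclei in SAH. In thalamic-like nuclei Homer1 was 78.6 and 103, under the 115 of oligodendrocyte nuclei in both libraries, so the ratio of 0.40 there is not read as a difference in neurons.

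Sorcs3 was within the limit in both classes. Its level was 386 and 349 CPM in excitatory and 330 and 370 in GABAergic neurons, with log2 ratios of -0.15 and 0.17. It was highest in caudal interneuron-like nuclei, 943 and 1253 CPM, followed by hippocampal pyramidal-like nuclei with 595 and 587, whose Normal interval overlapped that of upper layer nuclei at 581. It passed the limit in 1 subtype only, dentate granule-like nuclei, from 129 to 209 CPM (log2 ratio 0.69, interval 0.39 to 1.00), and the Normal level was below the 143 CPM of oligodendrocyte nuclei.
There 77.1% of the 140 Normal UMIs and 52.7% of the 245 SAH UMIs came from 10 nuclei of the library, and without these the ratio was 1.62. In the matching dentate cluster, which held 173 Normal and 301 SAH nuclei in place of 103 and 105, the ratio was 2.09, from 53.7 to 228 CPM. The size of this difference therefore depended on which nuclei were counted as dentate.

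**Figure D2:**
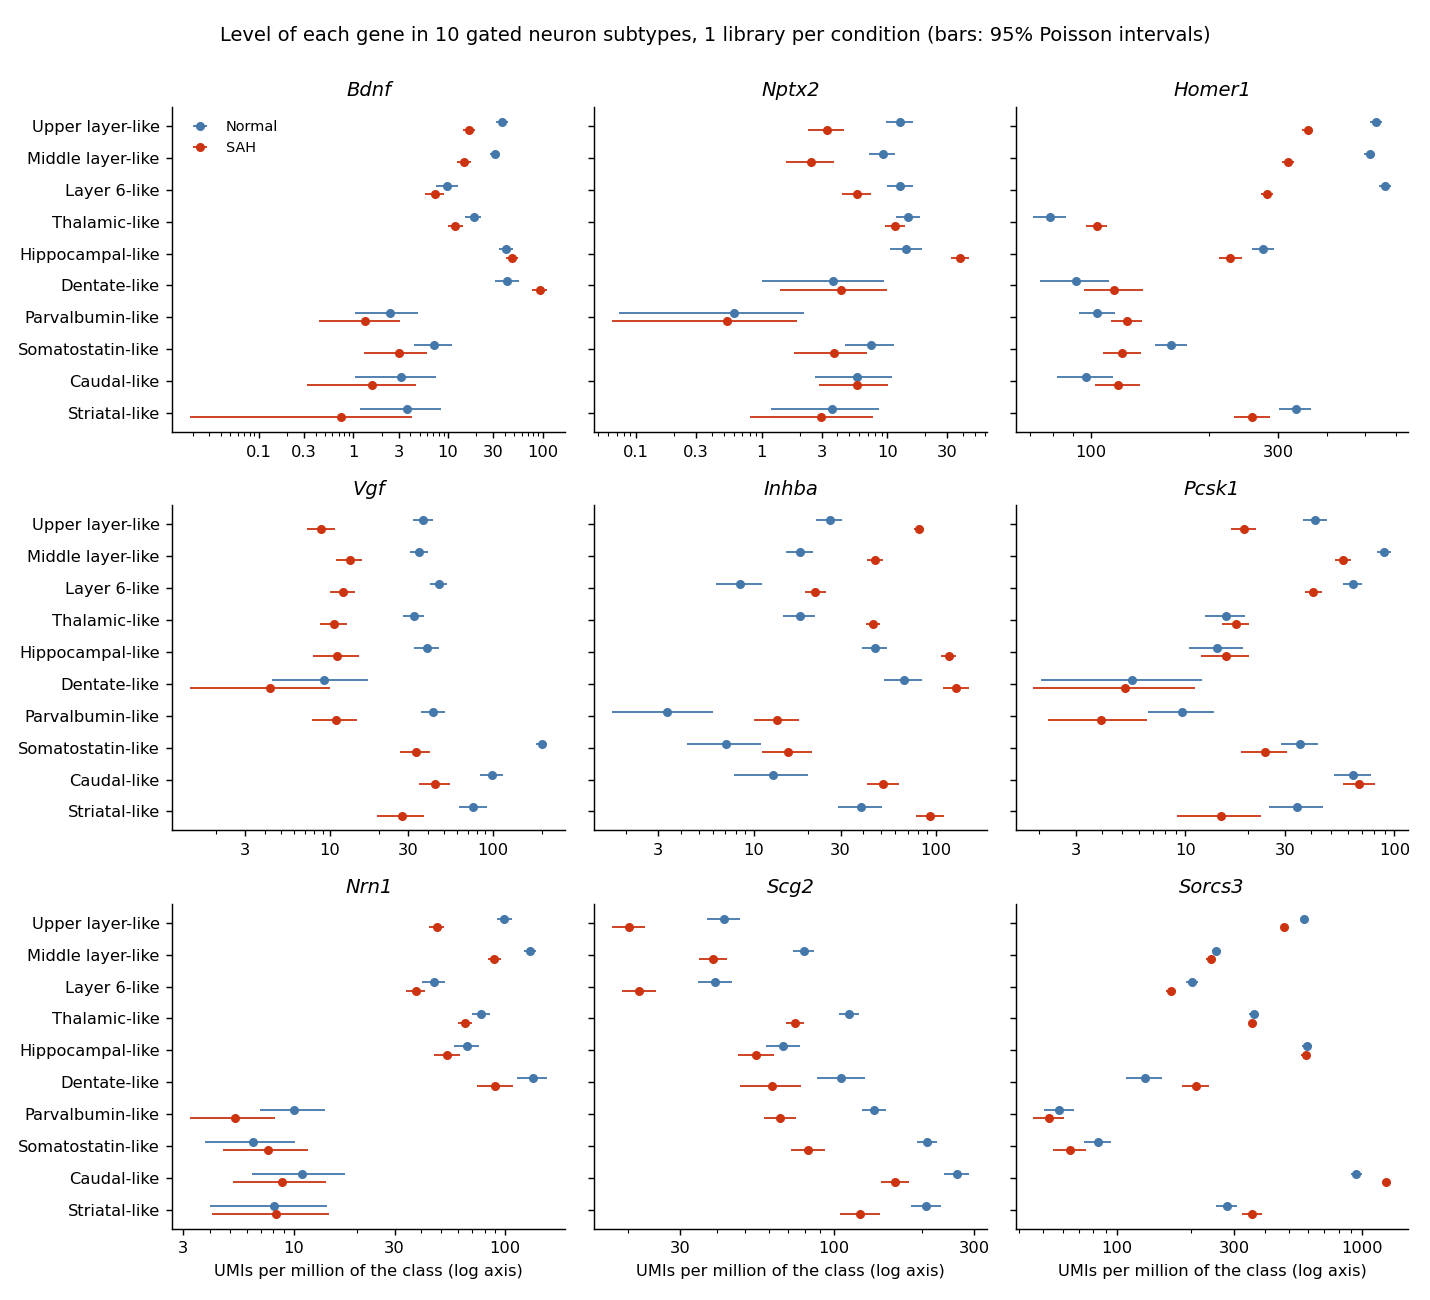
Level of each of the 9 genes in CPM of the subtype (x axis, logarithmic) in 10 neuron subtypes (y axis), in the Normal (blue) and SAH (red) library, with 95% Poisson intervals. Red lies to the right of blue for Inhba in all 10 subtypes and to the left for Scg2 in all 10. Nptx2 and Bdnf swap sides between cortical and hippocampal subtypes. Their intervals overlap for Bdnf in layer 6 and hippocampal pyramidal-like nuclei and for Nptx2 in dentate granule-like nuclei.

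Nptx2 and Bdnf each went in opposite directions in different neuron subtypes. In excitatory neurons as a whole both were lower in SAH: Nptx2 went from 14.2 CPM (13.3 to 15.2) to 7.21 (6.68 to 7.78), and Bdnf from 39.2 (37.7 to 40.8) to 24.5 (23.5 to 25.5). In upper and middle layer cortical neurons the differences were larger for both genes, and in layer 6 for Nptx2 only. Nptx2 went from 12.6 to 3.31 in upper layer, from 9.16 to 2.48 in middle layer and from 12.7 to 5.75 in layer 6 cortical-like nuclei, with log2 ratios of -1.93, -1.89 and -1.15.
Bdnf went from 37.4 to 16.8 in upper layer and from 31.4 to 14.9 in middle layer nuclei, ratios of -1.16 and -1.08, and from 18.6 to 12.0 in thalamic-like nuclei, a ratio of -0.64. In oligodendrocyte nuclei Bdnf was lower too, with a log2 ratio of -1.47, and its Normal interval there (11.3 to 19.0) overlapped that of thalamic-like nuclei (15.2 to 22.6). In layer 6 nuclei, which held 9.80 and 7.30, the Bdnf ratio was -0.42 and its interval included 0 (-0.94 to 0.10). The Normal level there was below the 14.8 CPM of oligodendrocyte nuclei. The SAH level of Nptx2 in middle layer nuclei was below the 2.66 of oligodendrocyte nuclei. Its interval in upper layer nuclei (2.36 to 4.53) overlapped that of oligodendrocyte nuclei (1.71 to 3.96). In SAH the oligodendrocyte nuclei were shallower, with a median of 2227 UMIs against 11720.5 in middle layer nuclei. The part of background in these Nptx2 levels was not tested.

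In hippocampal-like nuclei each of the genes was higher past the limit in 1 gated subtype, Nptx2 in pyramidal-like and Bdnf in dentate granule-like nuclei. No gated subtype had both past the limit, and dentate granule-like nuclei held only 4 and 5 UMIs of Nptx2. Hippocampal pyramidal-like nuclei held 48 UMIs of Nptx2 in Normal and 141 in SAH, or 14.2 and 37.9 CPM, a log2 ratio of 1.42 (0.94 to 1.92). Dentate granule-like nuclei held 46 and 109 UMIs of Bdnf, or 42.5 and 93.1 CPM, a ratio of 1.13 (0.62 to 1.66). In hippocampal pyramidal-like nuclei Bdnf was 40.8 and 47.4, a ratio of 0.21 whose interval included 0 (-0.12 to 0.55). In dentate granule-like nuclei the summed markers of astrocytes were 829 and 801 CPM. Those of oligodendrocytes there were 285 and 313 and those of microglia 94.3 and 138. In hippocampal pyramidal-like nuclei the markers of oligodendrocytes were 124 and 90.7 and those of microglia 71.6 and 88.0. Their part in these values was not tested.
The dentate granule-like nuclei led in Bdnf in both libraries, but in Normal their interval (31.1 to 56.7) covered the levels of the hippocampal pyramidal-like and upper layer nuclei, and in SAH it did not (76.5 to 112). For Nptx2, thalamic-like nuclei at 14.7, hippocampal pyramidal-like nuclei at 14.2, layer 6 nuclei at 12.7 and upper layer nuclei at 12.6 could not be ranked in Normal, since their intervals overlapped. In SAH the hippocampal pyramidal-like nuclei stood above all the others (31.9 to 44.7), with thalamic-like nuclei next at 11.5.

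**Figure D3:**
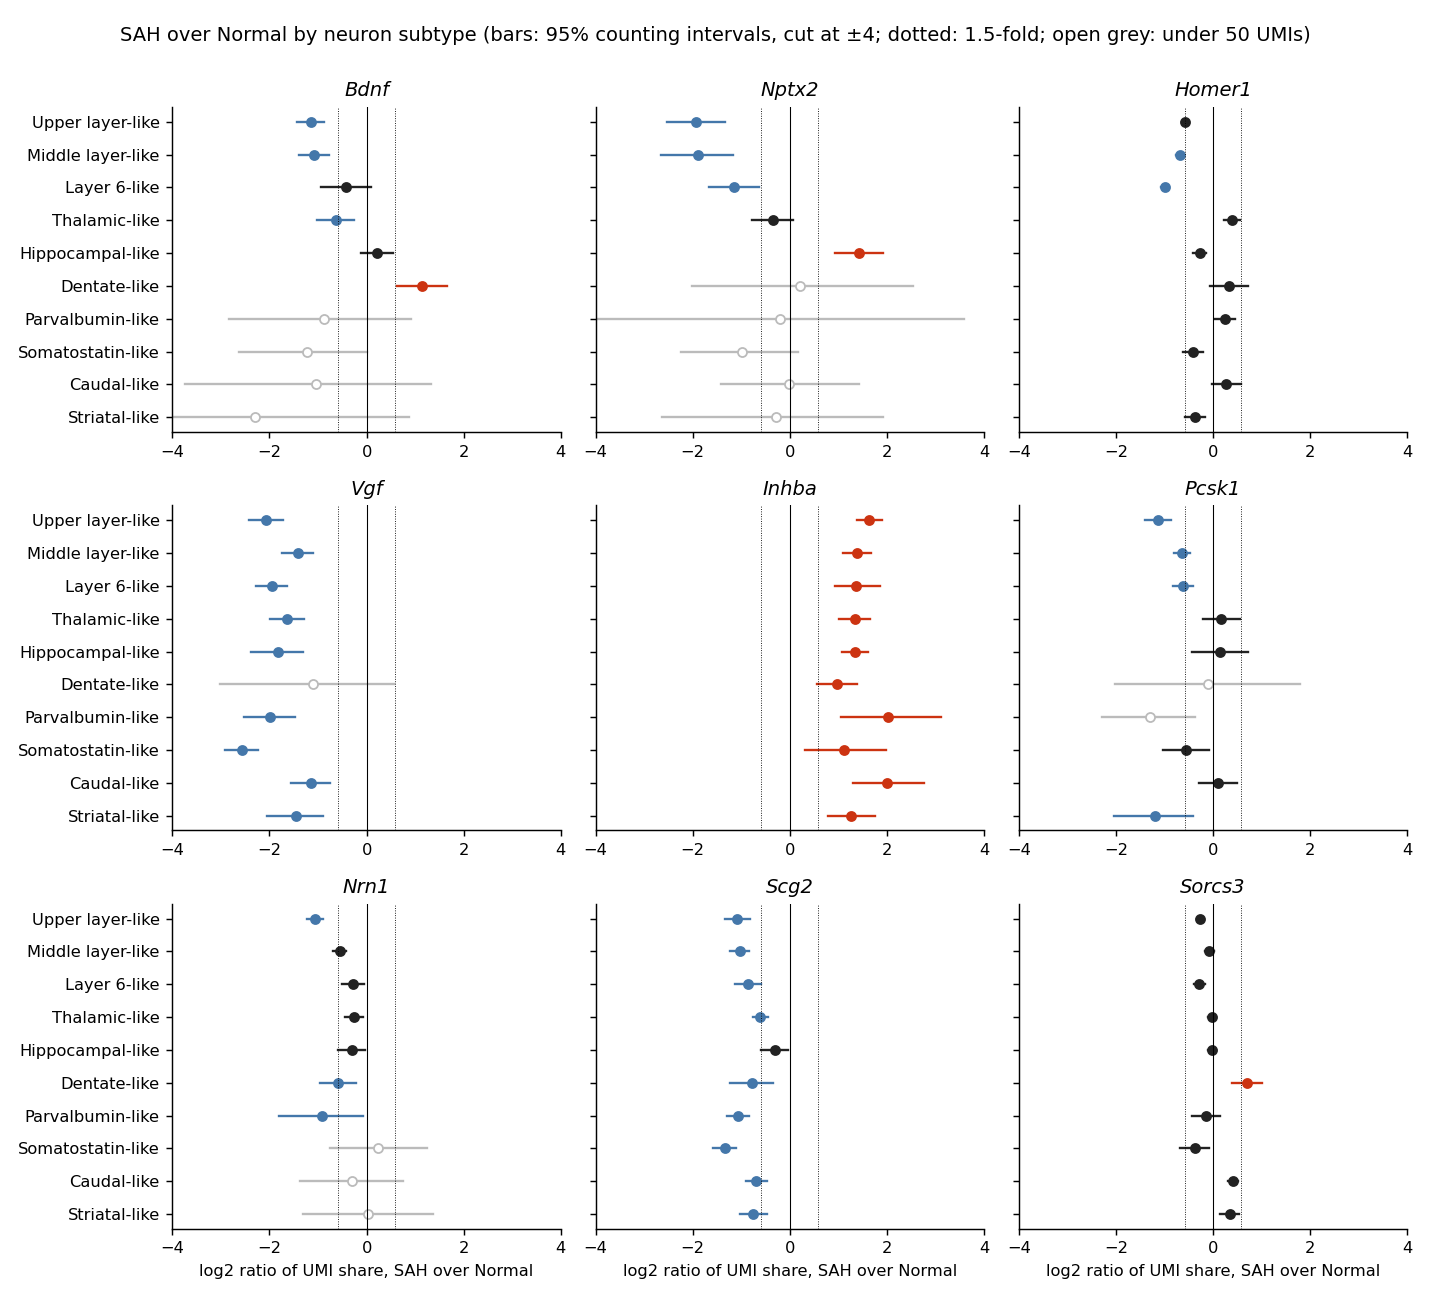
Log2 ratio of each gene's share of UMIs, SAH over Normal (x axis), in 10 neuron subtypes (y axis), with 95% counting intervals, in red where higher by 1.5-fold or more, blue where lower, black where within the limit (dotted lines) and open grey where under 50 UMIs were counted. Inhba is red in all 10 subtypes and Vgf blue in 9, while Bdnf and Nptx2 are blue in upper and middle layer cortical-like nuclei and red in dentate granule-like and hippocampal pyramidal-like nuclei respectively.

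Clusters built without the 9 genes and the other activity genes, largely from the same nuclei, gave a split in the same directions. For some values it was stronger in the hippocampal clusters than by the gate. In the hippocampal pyramidal-like cluster the log2 ratio of Bdnf was 0.65 (0.30 to 1.00), against 0.21 by the gate. This cluster held 11 of the 14 gated SAH nuclei with 3 or more UMIs of Bdnf. It also held 11 of the 13 with 3 or more of Nptx2, so its values are no separate support for the gated ones. Cluster ratios without the richest nuclei are not given. The dentate granule-like cluster held 9 and 51 UMIs of Nptx2, against 4 and 5 by the gate. These values thus depended on which nuclei were counted. Of 27 neuron clusters with at least 50 nuclei per library, Bdnf had at least 50 UMIs in 17 and Nptx2 in 13. Both were above 1.5-fold higher in the hippocampal pyramidal-like cluster, in the dentate granule-like cluster and in a cluster led by Mndal, Slc9a4 and Ccbe1, of whose nuclei 29.1% were gated as hippocampal pyramidal-like. This last cluster was grouped with the hippocampal ones after its values had been seen. Over these 3 clusters the log2 ratio was 0.65 to 1.09 for Bdnf and 1.36 to 2.27 for Nptx2. Over the other excitatory clusters it was -2.23 to -0.36 for Bdnf, in 11 clusters, and -2.93 to -0.03 for Nptx2, in 7.
The mixed cluster led by Avp was an exception for Nptx2, with 38 UMIs in Normal and 33 in SAH and a ratio of 1.23. In the cluster led by Mndal, Scg2 was also higher, at 17.3 and 32.3 CPM, the only one of 27 clusters in which it was. Inhba was higher in all 24 clusters with 50 of its UMIs, at 1.01 to 1.94, and Vgf was lower in 22 of 24, with ratios of -2.77 to -0.39 over all 24.

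**Figure D4:**
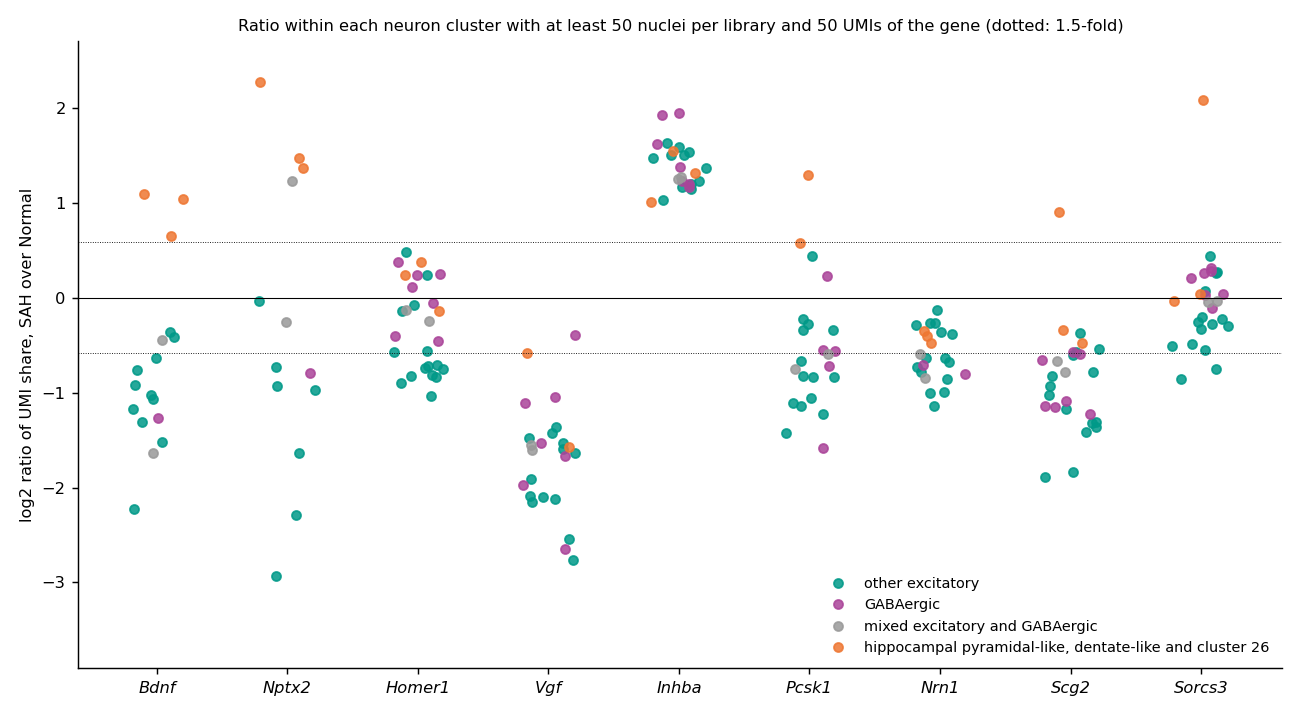
Log2 ratio of each gene's share of UMIs, SAH over Normal (y axis), in every neuron cluster with at least 50 nuclei per library and 50 UMIs of the gene (points, spread sideways for clarity), by gene (x axis) and coloured by kind of cluster. The 3 points of the hippocampal group, which includes the cluster led by Mndal that was placed there after its values were seen, lie above 0 for Bdnf and Nptx2 and the other excitatory clusters below it, while all 24 points of Inhba lie above 1.

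Much of the Nptx2 and Bdnf signal of hippocampal pyramidal-like nuclei came from few nuclei. In Normal no hippocampal pyramidal-like nucleus of 237 had 3 or more UMIs of Nptx2, and in SAH 13 of 228 had. In SAH, 10 nuclei gave 55.3% of the SAH UMIs of Nptx2, with 22 in the richest nucleus, and 54.0% of those of Bdnf, with 32 in the richest. The counting intervals above treat molecules as independent and are too narrow for signals clumped in this way.
Without the 10 richest nuclei of each library, a choice made after this was seen, the Nptx2 ratio was 0.78 and that of Bdnf -0.40. In dentate granule-like nuclei the Bdnf ratio was 1.54 without them. Of the 13 SAH nuclei with 3 or more UMIs of Nptx2, 7 also had 3 or more of Bdnf, which 14 nuclei had. Inhba had 3 or more UMIs in 63 SAH nuclei, of which 1 had 3 or more UMIs of Nptx2 and 0 had 3 or more of Bdnf.
In upper layer cortical-like nuclei 123 of 769 SAH nuclei had 3 or more UMIs of Inhba and none of these had 3 or more of Bdnf, which 13 nuclei had. In dentate granule-like nuclei, 21 of 105 SAH nuclei had 3 or more UMIs of Inhba and 14 had 3 or more of Bdnf, and 2 had both. These are counts of nuclei within 1 library and were not tested. At counts this small, few or no shared nuclei are not read as separate groups of nuclei. Whether the nuclei rich in Nptx2 came from 1 mouse or several cannot be told from pooled tissue.

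Once nuclei were thinned to 5000 UMIs, shallower ones left out, the share with at least 1 UMI did not always move with the level. For Inhba in excitatory nuclei it was 10.7% of 4324 Normal nuclei and 23.6% of 6461 SAH nuclei (23.7% and 44.5% of all excitatory nuclei before thinning). For Vgf it was 18.1% and 5.73% (33.3% and 13.2% before). In somatostatin interneuron-like nuclei the share with Vgf was 54.8% (48.1% to 61.4%) in Normal and 15.8% (11.2% to 21.4%) in SAH.
For Bdnf in dentate granule-like nuclei the share was 15.4% of 91 nuclei (8.67% to 24.5%) and 39.2% of 102 (29.7% to 49.4%). For Nptx2 in hippocampal pyramidal-like nuclei it was 7.21% (4.18% to 11.4%) and 12.4% (8.39% to 17.4%), whose intervals overlap. The mean number of UMIs in the nuclei with any went from 1.00 to 1.43. The share went against the level for Bdnf in hippocampal pyramidal-like nuclei, at 16.7% and 15.5%. It did so too for Nptx2 in thalamic-like nuclei, at 6.67% and 8.31%. In both cases the intervals of Normal and SAH overlapped.
Oligodendrocytes and microglia should hold little of these genes and give the background. At 1000 UMIs per nucleus the share with Inhba was 2.28% and 6.07% in excitatory, 0.12% and 0.70% in oligodendrocyte and 0.26% and 0.68% in microglia nuclei. The share with Vgf was 4.28% of excitatory and 1.29% of oligodendrocyte nuclei in Normal. The median depth of oligodendrocyte nuclei was 1912 and 2227 UMIs and that of microglia 1393 and 1809. Bdnf in the GABAergic subtypes was at or below the oligodendrocyte level in both libraries and is not read as expression.

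**Figure D5:**
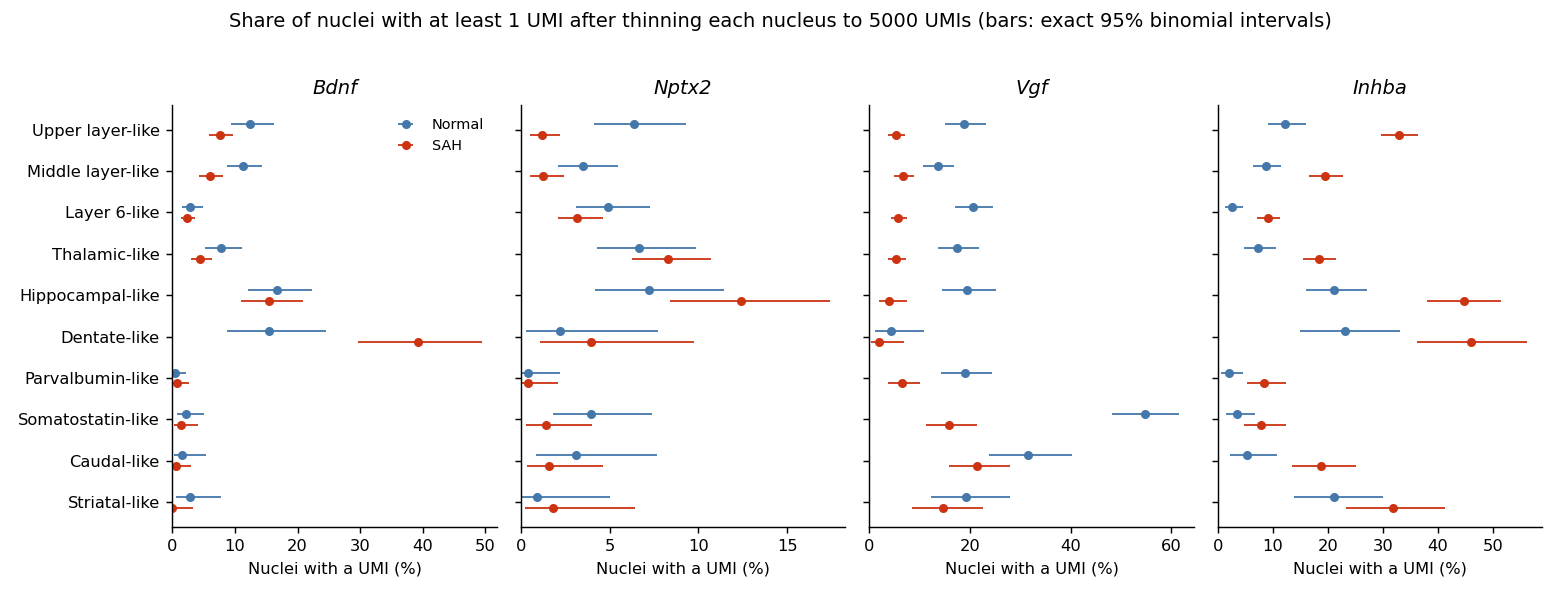
Share of nuclei with at least 1 UMI of Bdnf, Nptx2, Vgf and Inhba (x axis, per cent, each panel with its own range from 0) after thinning each nucleus to 5000 UMIs, in 10 neuron subtypes (y axis), Normal in blue and SAH in red, with exact 95% binomial intervals. The share with Inhba is higher in SAH in all 10 subtypes, from 2.02% and 8.33% in parvalbumin interneuron-like to 23.1% and 46.1% in dentate granule-like nuclei, and that with Bdnf is higher in dentate granule-like nuclei (15.4% and 39.2%).

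Counted by subtype, cortical neurons had the most members lower and hippocampal pyramidal-like nuclei the fewest. In upper layer cortical-like nuclei 6 of the 9 genes were lower, against 20.2% of all genes tested there, and 1 higher, against 12.0%. In middle layer nuclei 6 were lower, against 17.2%, and 1 higher, against 9.53%, and in layer 6 nuclei 5 were lower, against 18.6%, and 1 higher, against 9.63%. Thalamic-like nuclei had 3 lower (Bdnf, Vgf and Scg2), against 15.1%, and 1 higher, against 10.0%. These counts include values at or near the oligodendrocyte level, namely Scg2 in upper layer and layer 6 nuclei and Bdnf in thalamic-like nuclei in Normal. Also near it in SAH were Nptx2 in upper and middle layer nuclei and Vgf in upper layer nuclei. Scg2 in middle layer nuclei lay above that level by the gate, at 79.1 and 38.8 CPM. In the clusters matched to the middle layer it ranged widely, with 52.2 and 23.2, 18.1 and 14.0, and 633 and 246 CPM.
Hippocampal pyramidal-like nuclei had 1 lower (Vgf), against 18.9%, and 2 higher (Inhba and Nptx2), against 8.90%. In dentate granule-like nuclei only 6 members had 50 UMIs, of which 2 were lower (Nrn1 and Scg2), against 15.8%, and 3 higher (Bdnf, Inhba and Sorcs3), against 7.41%. In each GABAergic subtype 6 members had 50 UMIs and Inhba was the 1 higher, against 6.13% in parvalbumin, 6.07% in somatostatin and 5.40% in caudal interneuron-like and 6.72% in striatal projection-like nuclei. Lower were 3 members in parvalbumin, against 19.9%, 2 in somatostatin, against 20.4%, 2 in caudal interneuron-like nuclei, against 17.0%, and 3 in striatal projection-like nuclei, against 16.4%. Vgf and Scg2 were lower in all 4, and Nrn1 also in parvalbumin interneuron-like nuclei, where it was below the oligodendrocyte level. Pcsk1 was also lower in striatal projection-like nuclei, where its UMIs came from few nuclei. The 3 members under 50 UMIs in each of these 5 subtypes are not covered by the counts.

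The rapid immediate early genes, transcription factors and other genes that neurons switch on within minutes and that act before the late genes, were lower in SAH than in Normal. Of 29 listed, 28 had 50 UMIs in excitatory neurons, of which 24 were lower and 1 (Maff, at 22 and 61 UMIs) higher, with a median log2 ratio of -1.34. Of all genes tested there 16.7% were lower and 15.7% higher. Among those with at least 200 UMIs the most negative ratios were those of Fos, at -3.07, from 6.65 to 0.79 CPM, and Arc, an effector at synapses, at -2.64, from 15.1 to 2.41. At the other end of those with 200 UMIs stood Fbxo33 at -0.39 and Tiparp at -0.43.
In GABAergic neurons 16 of 20 were lower, against 18.6% of all genes. Among those with 200 UMIs, Npas4 at -1.48 and Egr1 at -1.30, both activity-induced transcription factors, led, while Tiparp at -0.41 and Fbxo33 at -0.55 were least so. In hippocampal pyramidal-like nuclei, where Nptx2 was higher, 9 of 13 rapid genes were lower and 0 higher, with a median of -1.08. Of all genes tested there 18.9% were lower and 8.90% higher. These lists, like the 9 genes, were chosen with earlier results of these data known and are described, not tested.

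Other delayed activity genes varied more. Of 28 with 50 UMIs in excitatory neurons, 12 were lower and 1 higher, with a median log2 ratio of -0.48, and in GABAergic neurons 9 of 25 were lower and 0 higher, with a median of -0.43. Of all genes in these classes, 16.7% and 18.6% were lower and 15.7% and 10.5% higher. Trib1, at -2.15, and Spry2, a feedback inhibitor of growth factor signalling, at -1.23, were lowest in excitatory neurons among those with 200 UMIs, and Acan, a proteoglycan of perineuronal nets, highest at 1.32 from 46 and 171 UMIs, ahead of Ptgs2 (cyclooxygenase 2) at 0.16. In GABAergic neurons Spry2 was at -1.51 and Rgs2 at -0.88, with Acan at 0.10 and Cpeb4 at 0.09.
In hippocampal pyramidal-like nuclei 5 of 16 were lower and 2 higher, namely Rgs2, a regulator of G protein signalling, with 12 and 41 UMIs, and Ptgs2 with 31 and 59, both named after their values were seen, beside 18.9% lower and 8.90% higher of all genes. In dentate granule-like nuclei 2 of 10 were lower and Bach2 was the 1 higher, near the 15.8% and 7.41% of all genes there.

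In both neuron classes, genes that work with the members were within the limit or lower. Of 36 partners with 50 UMIs in excitatory neurons, 10 were lower and 0 higher (median -0.29). Of 34 in GABAergic neurons, 8 were lower and 0 higher (median -0.17, as for all genes). Beside these, 16.7% and 18.6% of all genes in the classes were lower and 15.7% and 10.5% higher. Fst, which encodes follistatin, the inhibitor that binds activin, went from 5.17 to 2.59 CPM in excitatory neurons. Furin, a convertase that cuts many precursors including that of activin, was at -0.93 in excitatory and -0.76 in GABAergic neurons, and Pcsk1n, an inhibitor of Pcsk1, at -0.75 in GABAergic neurons.
On the other side Acvr2a, a receptor for activin, was at 0.25 in excitatory and 0.37 in GABAergic neurons, neither past the limit, and Sorcs1, a relative of Sorcs3, at 0.44 in excitatory neurons. Pcsk2, the second prohormone convertase, was at 0.20 in GABAergic neurons. In hippocampal pyramidal-like nuclei, 3 of 32 partners were higher, Sorcs1 (214 and 725 UMIs, ratio 1.62), Sorcs2 (0.73) and Acvr2a (0.65), and 7 were lower, shares near the 8.90% and 18.9% of all genes. These 3 were named after their values were seen. In dentate granule-like nuclei 1 of 28 was higher, the activin-family receptor Acvr1c (99 and 181 UMIs, ratio 0.76), and 2 were lower. Of all genes there 7.41% were higher and 15.8% lower.

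Of 13 factors upstream of the late genes, all measured in both classes, 2 were lower in excitatory and 1 in GABAergic neurons and 0 higher. The lower share was no larger than the 16.7% and 18.6% of all genes, of which 15.7% and 10.5% were higher. Crtc2, a coactivator of CREB, was at -0.95 and -0.96 and Mef2d at -0.63 and -0.50. The highest were Camk4, a calcium-dependent kinase, at 0.16 and 0.24, and Mef2c at 0.13 and 0.19. The medians of -0.22 and -0.19 lay near those of all genes.

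For each member the 3 genes with the most similar pattern were sought among 15586 genes, by the Pearson correlation of log2(CPM + 1) over 20 points, the 10 subtypes in 2 libraries, which share libraries and depth. Inhba was most like A530046M15Rik (r = 0.95), 4933412O06Rik (0.94) and Iqcm (0.92). The first 2 lie on the same chromosome as Inhba, 184 and 209 kb away, and went from 26.6 to 48.6 and from 31.7 to 43.0 CPM in excitatory neurons, log2 ratios of 0.87 and 0.44.
After this was seen, genes within 250 kb of Inhba were listed. Only 1 more had 50 UMIs in excitatory neurons, Gm31450, 77.2 kb away, with 64 and 351 UMIs and a ratio of 1.88. In GABAergic neurons the ratios of these 3 neighbours, in the same order, were 0.93, 0.54 and 1.70, and the values of 4933412O06Rik were within the 1.5-fold limit in both classes.
Vgf was most like Cbarp (0.93), Snrnp27 (0.93) and Smc6 (0.93), and Bdnf like Faah (0.93), Gm43111 (0.89) and Elmo2 (0.89). Nrn1 was most like Rtn4r (0.95), which encodes the Nogo receptor, Gm12536 (0.90) and Slc17a7 (0.90), the vesicular glutamate transporter. Homer1 was most like Tyro3 (0.91), Rab15 (0.90) and Rcan1 (0.89), and Scg2 like Gaa (0.91), Tial1 (0.90) and Abcd3 (0.89). The values were lower for Nptx2 (Fbn2, 0.87, and Rnf165, 0.77), Pcsk1 (Fbxl2, 0.86, Dpy19l1, 0.85, and Gm48957, 0.85) and Sorcs3 (Csmd3, 0.79, Magi3, 0.77, and Gm42701, 0.77).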

How the data were processed

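Nuclei of 2 libraries, 1 per condition and each from 3 pooled mice, were profiled with 10x Genomics chemistry. The authors deposited raw UMI counts per gene and nucleus (32285 genes, 12204 Normal and 18209 SAH nuclei, 114970719 and 172604358 UMIs), made with Cell Ranger 6.1.2 per the file headers, introns included. The submitters' processing notes name Cell Ranger 5.0.0 and mm10.

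Nuclei with 300 to 7000 genes, under 10% mitochondrial and 3% haemoglobin UMIs and under 100000 UMIs were kept, and doublets were removed with Scrublet at 0.8% per 1000 nuclei, which left 10955 and 15536. The libraries shared 78 barcode sequences, 0.639% of the Normal nuclei. Classes were gated on mean log2 scores of marker genes. Counts were summed per class and library and scaled to CPM. They were given with exact Poisson intervals, exact conditional binomial intervals of the log2 ratio, or exact binomial intervals of shares (95%, counting error only). These were computed with numpy 2.4.6 and scipy 1.17.1. The ratio, its interval and the fold rule were checked on simulated independent counts, which the intervals assume. That check cannot show whether the intervals hold for signals clumped in few nuclei. Clusters were built with scanpy 1.11.5 (2000 variable genes without members or listed activity genes, 30 components, 20 neighbours, resolution 2). All 9 members were named. From each list the 2 highest and 2 lowest genes with at least 200 UMIs were named in each of the 2 classes, and the 3 most alike genes per member, of which 1 is not reported here. The alternatives were no doublet removal, stricter or no limits on nuclei, a stricter gate, clusters, thinning to 5000 UMIs, equal weight per nucleus, 2 ways of centring and a lower and a higher fold, and, added after seeing the data, leaving out the richest nuclei. The members, lists and alternatives were chosen with earlier results of these data known. Promoters of Nptx2, Vgf and Nrn1 are not shown.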

Additional observations from a re-analysis of the deposited data

Results flagged for a closer look

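Bdnf and Nptx2 were each past the 1.5-fold limit in one direction in one neuron subtype and in the other direction in another. The log2 ratio of SAH over Normal for Bdnf was 1.13 in dentate granule-like nuclei (46 and 109 UMIs) and -1.16 in upper layer cortical-like nuclei (208 and 198 UMIs). For Nptx2 it was 1.42 in hippocampal pyramidal-like nuclei (48 and 141 UMIs) and -1.93 in upper layer cortical-like nuclei (70 and 39 UMIs). With 1 library per condition the difference between subtypes was not tested. In both pairs the counting intervals of the subtypes lie on opposite sides of 0, but the pairs were picked for their opposite directions. Counting intervals are also too narrow for clumped signals. In hippocampal pyramidal-like nuclei, 10 nuclei gave 55.3% of the SAH UMIs of Nptx2. Without the 10 richest nuclei of each library its ratio there was 0.78. The Nptx2 level of upper layer nuclei in SAH was within the counting interval of oligodendrocyte nuclei.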

How the results depend on the processing

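Of 93 member and class pairs with at least 50 UMIs, 58 were past the 1.5-fold limit. Of these, 38 were past it under all 9 other ways of processing, and 0 changed direction under any of them. The excitatory and GABAergic classes hold the nuclei of the subtypes, so the pairs overlap. Beside these counts, 16.7% of all genes were lower and 15.7% higher in excitatory neurons, and 18.6% and 10.5% in GABAergic neurons. Fewest kept the limit under centring on genes of like length (15 of 58 lost) and on the median of all genes (10 lost). Without the 10 richest nuclei, an alternative added after seeing the data, 3 of 56 lost it (Homer1 in excitatory neurons and Pcsk1 in middle layer and layer 6 nuclei) and 0 changed direction.

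Counts of members that moved by over 1.5 times were as follows. The share of all genes past the limit under these other settings is not given, so the counts have no background beside them. Centring on all genes gave 4 lower in excitatory, 1 in thalamic-like, 1 in dentate granule-like and 1 in caudal interneuron-like nuclei. Centring on like length gave 3 lower in layer 6, 0 in dentate, 1 in parvalbumin and 1 in caudal nuclei. Clusters in place of the gate gave 5 lower in GABAergic, 1 in thalamic and 0 in dentate nuclei and 4 higher in hippocampal pyramidal-like nuclei. These 4 were Inhba, Nptx2, Bdnf and Pcsk1. A stricter gate gave 1 lower in dentate, 0 higher in parvalbumin and somatostatin and 2 higher in striatal nuclei. Thinning gave 1 lower in dentate and 4 in somatostatin nuclei and 0 higher in parvalbumin and somatostatin nuclei. In both of these, Inhba had fewer than 50 UMIs left in parvalbumin and somatostatin nuclei. Without limits on nuclei 1 was lower in dentate nuclei, and with equal weight per nucleus 2 in hippocampal nuclei. The lower fold gave 5 lower in GABAergic and in somatostatin nuclei and 2 higher in thalamic, caudal and striatal nuclei. The fold of 2 gave 1 lower in excitatory, GABAergic, thalamic and caudal nuclei, 2 in layer 6, 0 in dentate, and 1 higher in dentate nuclei. Other causes were not tested.

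Bdnf and Nptx2 in the GABAergic subtypes and Vgf in dentate granule-like nuclei had fewer than 50 UMIs over both libraries. Whether depth or a low level lay behind this was not tested. No paired analysis was possible because each condition has 1 library.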
